A study of Mus musculus with 6 samples.

Results

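Mac4 is the cluster of cycling macrophages in a Drop-seq study of adult mouse hearts. Drop-seq captures single cells in droplets with barcoded beads and counts their transcripts as UMIs, molecules told apart by a random tag. The members were all cells that the deposited cell table assigns to cluster Mac4, which were 2540 of 21706 cells and 2540 of the 7504 cells in the 4 macrophage clusters. Of the other macrophage clusters, Mac1 held 2841 cells, Mac2 1663 and Mac3 460, and these 3 together, called Mac1-3, are what Mac4 was set against. In an earlier grouping of the same cells in that table, 2217 Mac4 cells (87.3%) were named MacPro and 265 were named Y5_Mac.

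A macrophage that divides copies its DNA in S phase and then, in G2 and mitosis, condenses and separates its chromosomes. S phase genes are switched on by E2F factors. Many mitotic genes carry a CHR element, bound by the DREAM complex in resting cells and by complexes with B-MYB and FOXM1 later in the cycle. Beside it lie CCAAT boxes, which bind the activator NF-Y. Resident macrophages of the mouse heart maintain themselves partly by dividing in place, under the growth factor CSF1.

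The YAP5SA libraries came from adult hearts labelled Yap5SA+/tg; Myh6-MCM, and the Control libraries from hearts labelled Myh6-MCM; both were labelled with tamoxifen. Myh6-MerCreMer is a tamoxifen-dependent Cre recombinase driven by the promoter of a cardiomyocyte myosin gene, so the YAP5SA transgene, a YAP that the kinases LATS1 and LATS2 cannot phosphorylate, is switched on in cardiomyocytes and not in macrophages by design. Both groups carry the Cre and both received tamoxifen; the time after it is not given in the sources used here. Each genotype had 2 libraries from dissociated tissue and 1 from enriched cardiomyocytes. The libraries are called YAP5SA tissue-1, YAP5SA tissue-2, YAP5SA enriched, Control tissue-2, Control tissue-3 and Control enriched. The labels do not say whether libraries came from separate hearts, so a p-value measures the spread between libraries, which may be technical.

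Mac4 held 635 cells in YAP5SA tissue-1, 996 in YAP5SA tissue-2 and 703 in YAP5SA enriched, against 171 in Control tissue-2 and 35 in Control tissue-3. Control enriched had 0 macrophages among 1405 cells, which allows a share of up to 0.214%, and entered no comparison. The Mac4 cells summed to 1214528, 2580672 and 1201440 UMIs in the YAP5SA libraries, against 205229 and 40246 UMIs in the Control libraries. The median Mac4 cell had 1575, 2276.5 and 1384 UMIs in the YAP5SA libraries, against 1062 and 931 UMIs in the Control libraries.

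Control tissue-3 stood apart. In 19 of its 35 Mac4 cells (54.3%) the markers of another cell type, most often cardiomyocytes (16 cells) or endothelial cells (5 cells), had more UMIs than the 18 macrophage markers. In the other 4 libraries that held for 9 of 635, 10 of 996 and 9 of 703 Mac4 cells from YAP5SA hearts and for 3 of 171 from Control tissue-2. The median Mac4 cell of Control tissue-3 had 15.8% mitochondrial UMIs, against 2.21% to 5.50% in the other libraries. Fabp4, a fatty acid carrier of capillary endothelium, stood at 3528 CPM in its Mac4 sum, against 110 to 241 CPM in the other 4; CPM here is a gene's UMIs relative to all UMIs of the summed cells, on the usual counts-per-1e6 scale. Results that rest on this library are given with and without it where both were computed. A second split follows the annotation: joined names of overlapping genes occur in YAP5SA tissue-1, YAP5SA tissue-2, Control tissue-2 and Control enriched, and in neither of the other 2 libraries. Of 21696 distinct barcodes, 10 occurred in more than 1 library, among them that of 1 Mac4 cell. No doublet caller was run and no cell was removed; 18 of the 2540 Mac4 cells had more UMIs of T or NK cell markers than of macrophage markers, against 1 of 4964 Mac1-3 cells.

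The markers of the label were checked first. Mki67, the Ki-67 protein that coats mitotic chromosomes, stood at 991, 806 and 1039 CPM in Mac4 of the YAP5SA libraries and at 789 and 1292 CPM in the Control libraries, against 109, 89.6 and 95.6 CPM in Mac1-3 of the YAP5SA libraries and 64.2 and 39.3 CPM in the Control libraries. Top2a, the topoisomerase that untangles copied chromosomes, stood at 841 to 1565 CPM in Mac4 and at 15.7 to 119 CPM in Mac1-3. In every library Mac4 lay above Mac1-3 for both genes, and no Mac4 value came near a Mac1-3 value. Cd68, a lysosomal membrane protein of macrophages, was present in both: 454, 467 and 468 CPM in Mac4 of the YAP5SA libraries and 872 and 422 CPM in the Control libraries, against 623, 567 and 620 CPM and 1102 and 385 CPM in Mac1-3 of the same libraries. All 18 macrophage markers were detected in Mac4, and their sum was 25911 to 27420 CPM in the YAP5SA libraries and 39658 and 13194 CPM in the Control libraries.

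After every cell was thinned to 750 UMIs, which kept 602 of 635, 970 of 996 and 675 of 703 Mac4 cells of the YAP5SA libraries and 157 of 171 and 34 of 35 of the Control libraries, Mki67 had a UMI in 50%, 42.5% and 49.3% of YAP5SA Mac4 cells and in 38.9% and 61.8% of Control Mac4 cells. In endothelial cells, taken for comparison, the share was 0.820% to 4.13%, and in Mac1-3 it was 2.68% to 6.92%. How much of either share came from free RNA in the droplets or from cycling cells was not tested. Unthinned, the Mac4 shares were 70.1%, 73.1% and 71.7% in the YAP5SA libraries and 52.0% and 65.7% in the Control libraries, against 2.16% to 7.44% in endothelial cells, whose median depth was 1008 to 1472 UMIs.

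The widest differences between Mac4 and Mac1-3 were those of G2 and mitosis genes. A cluster set against the rest of the same cells is no test, since the authors drew the clusters from these transcripts, so this comparison describes sizes: the log2 difference of CPM + 10 within each library, averaged over 5 libraries. Of 1841 features with at least 100 CPM as the mean of Mac4 and Mac1-3, 63 were at least 2-fold higher in Mac4 and higher in every library (3.42% of the features), and 13 were at least 2-fold lower and lower in every library (0.706%). Without Control tissue-3 the counts were 55 and 5. Of the 63 higher features, 50 were in the cell cycle lists; among the other 13 were 2810417H13Rik, which mouse annotation also calls Pclaf, the PCNA-associated factor of S phase (2.94) and Dnajc9, a histone chaperone (1.22). The median over all 1841 features was 0.02. The genes named as widest below had at least 100 CPM in Mac4 on the higher side, or in Mac1-3 on the lower side.

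The 5 widest differences belonged to mitotic exit, the spindle midzone and the chromosomes. Ube2c, the ubiquitin-conjugating enzyme of the anaphase-promoting complex, stood at 584, 391 and 647 CPM in Mac4 of the YAP5SA libraries and 482 and 596 CPM in the Control libraries, against 11.8, 11.9 and 13.2 CPM and 4.43 and 0 CPM in Mac1-3 of the same libraries, a mean log2 difference of 4.96 ± 0.63 (SD, n = 5 libraries). Prc1, which bundles the microtubules of the midzone, stood at 459, 321 and 576 CPM in Mac4 of the YAP5SA libraries and 516 and 646 CPM in the Control libraries, against 14.7, 16.1 and 20.1 CPM and 11.1 and 0 CPM in Mac1-3, a difference of 4.58 ± 0.89. Neither gene had a Mac4 value near a Mac1-3 value of the same library. The other 3 were Cenpf, a kinetochore protein (4.3 ± 0.71), Nusap1, which anchors microtubules to chromosomes (4.25 ± 0.49), and Top2a (4.11 ± 1.12).

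**Figure D1:**
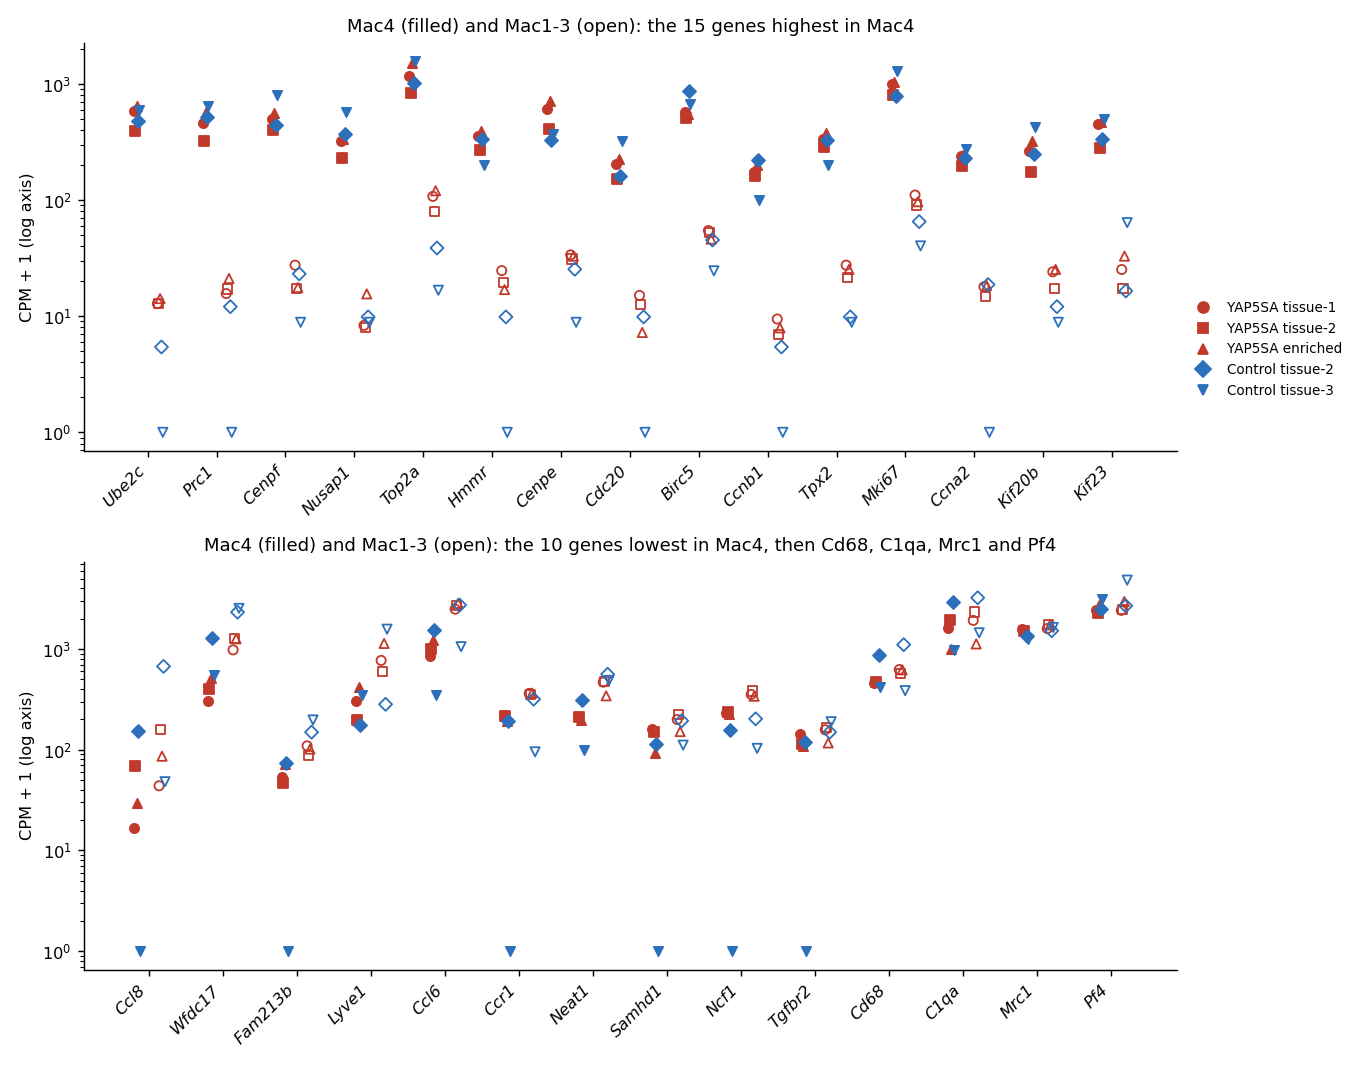
CPM + 1 on a log axis in each of 5 libraries, summed over Mac4 cells (filled) and Mac1-3 cells (open), YAP5SA red and Control blue; the upper panel shows the 15 genes with the widest mean difference upward among those of at least 100 CPM in Mac4, and the lower panel the 10 with the widest downward among those of at least 100 CPM in Mac1-3, followed by Cd68, C1qa, Mrc1 and Pf4. For the upper 15 every filled point lies above every open point of the same gene, and for 6 of the lower 10 the filled Control tissue-3 point is at 0 CPM.

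The remaining 10 of the 15 widest differences covered the same stages. Hmmr, a spindle pole protein, differed by 3.85, Tpx2, which activates Aurora A on the spindle, by 3.54, and the motors Cenpe by 3.82, Kif20b by 3.46 and Kif23 by 3.46. Cdc20, which turns on the anaphase-promoting complex, differed by 3.63, Birc5, the survivin subunit of the chromosomal passenger complex, by 3.60, and the cyclins Ccnb1 and Ccna2 by 3.56 and 3.49. Mki67 itself differed by 3.51. Ccnb1, the mitotic cyclin, stood at 172, 159 and 200 CPM in Mac4 of the YAP5SA libraries and 219 and 99.4 CPM in the Control libraries, against 8.45, 5.96 and 6.93 CPM and 4.43 and 0 CPM in Mac1-3.

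By role, the mitotic lists differed almost as a whole. At a minimum of 10 CPM, 234 of 8867 features were higher in Mac4 by the same rule (2.64%), 134 of them in the cell cycle lists, and 43 were lower (0.485%). Of the counted members, 26 of 27 cyclins, mitotic kinases and their factors were higher (median log2 difference 2.80), 24 of 27 kinetochore genes (1.75), 24 of 25 spindle and kinesin genes (2.73), 13 of 14 cytokinesis genes (3.10) and 14 of 18 genes of chromosome condensation and cohesion (1.93). Over all 8867 features the median was -0.01. The authors' clusters used these genes, so their counts describe Mac4 and support no claim about it.

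Several members of these lists were abundant. Smc4, a condensin subunit that compacts chromosomes, stood at 1255, 962 and 1392 CPM in Mac4 of the YAP5SA libraries and 989 and 1193 CPM in the Control libraries, against 246, 230 and 301 CPM and 148 and 118 CPM in Mac1-3. Cenpa, the histone variant that marks the centromere, stood at 492, 440 and 450 CPM in Mac4 of the YAP5SA libraries and 687 and 323 CPM in the Control libraries, against 43.4, 43.2 and 37.4 CPM and 46.5 and 23.6 CPM in Mac1-3. Both lay higher in Mac4 in all 5 libraries. Of the chromatin genes, 14 of 25 were higher (median 1.12), among them Hmgb2, a DNA-bending protein (2.78), H2afv, a histone H2A variant (1.77), and Dek, a chromatin organiser (1.12).

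Promoter sequences of the 3 genes with the widest differences are shown because they carry the letters that mitotic promoters are known for. That of Mcm6, a helicase subunit, is shown as the S phase score gene highest in Mac4 among those with E2F letters. Mcm6 stood at a like level in Mac4 and Mac1-3, which was no part of the choice. They are RefSeq sequences of build GRCm38.p6, 250 bases before to 50 bases after the start. In the first 3, capitals mark the CHR letters TTTGAA and the CCAAT box CCAAT, each on either strand, and in Mcm6 they mark E2F letters. Ube2c lies on the plus strand at chr2:164769679-164769978, Prc1 on the plus strand at chr7:80294201-80294500, Cenpf on the minus strand at chr1:189688037-189688336 and Mcm6 on the minus strand at chr1:128359656-128359955.
Ube2c: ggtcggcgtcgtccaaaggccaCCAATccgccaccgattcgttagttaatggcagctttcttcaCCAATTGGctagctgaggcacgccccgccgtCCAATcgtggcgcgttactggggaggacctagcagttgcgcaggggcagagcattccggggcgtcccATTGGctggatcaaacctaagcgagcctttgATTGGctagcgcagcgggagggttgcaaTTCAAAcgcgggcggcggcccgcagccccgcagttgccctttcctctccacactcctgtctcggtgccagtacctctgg
Prc1: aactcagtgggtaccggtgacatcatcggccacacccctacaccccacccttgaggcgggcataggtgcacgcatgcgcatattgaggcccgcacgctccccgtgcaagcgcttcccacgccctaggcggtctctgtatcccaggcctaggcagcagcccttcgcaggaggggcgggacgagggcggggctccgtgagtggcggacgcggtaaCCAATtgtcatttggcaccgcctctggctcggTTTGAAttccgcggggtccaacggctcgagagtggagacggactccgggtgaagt
Cenpf: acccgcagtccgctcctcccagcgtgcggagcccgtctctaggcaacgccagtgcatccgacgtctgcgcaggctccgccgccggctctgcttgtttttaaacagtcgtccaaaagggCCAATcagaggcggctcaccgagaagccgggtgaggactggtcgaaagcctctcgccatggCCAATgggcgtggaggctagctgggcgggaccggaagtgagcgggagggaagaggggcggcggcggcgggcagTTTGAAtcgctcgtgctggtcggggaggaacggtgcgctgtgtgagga
Mcm6: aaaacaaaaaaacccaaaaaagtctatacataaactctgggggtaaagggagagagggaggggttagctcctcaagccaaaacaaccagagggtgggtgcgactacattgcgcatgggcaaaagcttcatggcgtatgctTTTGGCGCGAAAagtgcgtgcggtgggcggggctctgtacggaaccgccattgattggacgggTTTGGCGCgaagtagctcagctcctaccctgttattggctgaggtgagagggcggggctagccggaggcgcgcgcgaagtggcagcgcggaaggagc

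In the first 3 promoters the 1 CHR match starts between 29 bases before and 2 bases after the start, and there are 6 CCAAT matches in Ube2c, 1 in Prc1 and 2 in Cenpf. The E2F letters searched were TTTCCCGC, TTTGGCGC, TTTCGCGC and TTTGCCGC on either strand, and Mcm6 holds 3 matches, of which 2 overlap. Of the 15 widest genes, 13 had a promoter in the table, and Tpx2 and Ccna2 had none. The CHR letters occurred in 9 of the 13 (69.2%), the CCAAT box in 10 (76.9%), both in 8 (61.5%) and the E2F letters in 0. Over all 27025 promoters of this length the shares were 18.1%, 37.9%, 7.12% and 2.32%. Of the 63 higher features 53 had a promoter, with the CHR letters in 28 (52.8%), the CCAAT box in 40 (75.5%) and both in 26 (49.1%), and the E2F letters in 4 (7.55%). A match is a run of letters and not a bound site. For the S phase and DNA replication lists under 80% of the members had a promoter, so that check was void and their shares only describe those found. The CCAAT box occurred in 22 of 31 S phase score promoters (71.0%) and 21 of 32 DNA replication promoters (65.6%). The CHR letters occurred in 5 (16.1%) and 4 (12.5%), and the E2F letters in 11 (35.5%) and 14 (43.8%).

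S phase genes set Mac4 apart far less than mitotic genes did. Of the counted members, 2 of 40 DNA replication genes were at least 2-fold higher in every library (median 0.42), 4 of 15 genes of nucleotide synthesis (0.25), 6 of 14 DNA repair genes (0.69) and 10 of 41 genes of the S phase score (0.52), beside 2.64% of all features. The 2 of 40 lie close to that background. The DNA replication list summed to 2976, 3301 and 2892 CPM in Mac4 of the YAP5SA libraries and 3133 and 2534 CPM in the Control libraries, against 2357, 2421 and 2456 CPM and 1979 and 1265 CPM in Mac1-3 of the same libraries. Mac4 was the higher in each library. The G2/M score list, which lay further apart, summed to 15638, 12948 and 16732 CPM in Mac4 of the YAP5SA libraries and 14876 and 17269 CPM in the Control libraries, against 2500, 2294 and 2614 CPM and 1846 and 1343 CPM in Mac1-3.

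Mcm6, whose promoter is shown above, stood at 127, 139 and 122 CPM in Mac4 of the YAP5SA libraries and 127 and 124 CPM in the Control libraries, against 132, 131 and 148 CPM and 99.6 and 126 CPM in Mac1-3. It was higher in Mac4 in 2 libraries and lower in 3, with a mean difference of 0.01 ± 0.21. Pcna, the sliding clamp of the replication fork, differed by 0.52 ± 0.23, and Lig1, which joins Okazaki fragments, by 0.87 ± 0.59. Genes of deoxynucleotide supply differed more: Tyms, thymidylate synthase, stood at 282, 269 and 300 CPM in Mac4 of the YAP5SA libraries and 287 and 273 CPM in the Control libraries, against 99.7, 85.9 and 93.5 CPM and 68.6 and 31.4 CPM in Mac1-3, a difference of 1.85 ± 0.55. Rrm2 and Rrm1, the subunits of ribonucleotide reductase, differed by 2.41 ± 1.33 and 1.56 ± 0.44. All 3 supply genes were higher in Mac4 in every library.

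Within Mac4 the authors' phase calls split these groups. How the calls were made is not given in the sources used here, and such calls usually read genes of these lists, so the split is a description. In S-called Mac4 cells the DNA replication list summed to 5822, 5489 and 5847 CPM in the YAP5SA libraries and 6099 CPM in Control tissue-2, and in G2M-called Mac4 cells to 2263, 2527 and 2270 CPM in the YAP5SA libraries and 1983 CPM in Control tissue-2. The G2/M score list ran the other way, with 8415, 7626 and 9347 CPM and 8051 CPM in S-called cells and 17509, 14878 and 18288 CPM and 17630 CPM in G2M-called cells. S-called Mac4 cells thus held several times the G2/M score sum of Mac1-3. Control tissue-3, with 6 S-called Mac4 cells, was left out of these sums. Mcm6 differed by -1.93 between G2M-called and S-called cells and Pcna by -1.63, while Ube2c differed by 2.82 and Cdc20 by 2.60 on the log2 scale.

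Of 24 counted G1 cyclins and regulators 3 were higher by the 2-fold rule, beside 2.64% of all features, and the median was 0.29. Ccnd1, cyclin D1, which drives entry into the cycle, stood at 465, 382 and 407 CPM in Mac4 of the YAP5SA libraries and 253 and 348 CPM in the Control libraries, against 781, 643 and 698 CPM and 272 and 314 CPM in Mac1-3. It was lower in Mac4 in 4 libraries and higher in Control tissue-3. Cdkn2d, the p19 inhibitor of CDK4 and CDK6, was higher in Mac4 in all 5 libraries, at 172, 160 and 193 CPM in the YAP5SA libraries and 278 and 149 CPM in the Control libraries, against 31.0, 34.3 and 42.9 CPM and 39.8 and 0 CPM in Mac1-3. Cdkn1a, the p21 inhibitor, differed by -0.14 ± 0.44.

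Macrophage genes were kept in Mac4, most at a slightly lower CPM. Pf4, a chemokine of resident cardiac macrophages, stood at 2417, 2266 and 2723 CPM in Mac4 of the YAP5SA libraries and 2519 and 3156 CPM in the Control libraries, against 2417, 2470 and 2956 CPM and 2680 and 4823 CPM in Mac1-3. C1qa, a chain of complement C1q, differed by -0.28 ± 0.17, Mrc1, the mannose receptor, by -0.19 ± 0.13 and Csf1r, the receptor of CSF1, by -0.17 ± 0.23. Cx3cr1, the fractalkine receptor, went the other way: 459, 322 and 363 CPM in Mac4 of the YAP5SA libraries and 331 and 224 CPM in the Control libraries, against 357, 271 and 269 CPM and 208 and 134 CPM in Mac1-3. It was higher in Mac4 in all 5 libraries, by 0.47 ± 0.20.

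Genes of resident macrophages were low in Mac4 beside Mac2, and not beside Mac1. In the resident list 16 of 20 counted genes were lower in Mac4 than in Mac1-3 in every library, beside 9.71% of all features, 2 of them by at least 2-fold, with a median of -0.68. Against Mac2 alone 18 of the 20 were lower in every library (median -1.20), against Mac3, in the 4 libraries with at least 10 Mac3 cells, 7 (median -0.24), and against Mac1 2 (median 0.13). The share of all features lower in every library is not given against single clusters. The 20 genes summed to 8498, 7300.4 and 8968 CPM in Mac4 of the YAP5SA libraries and 9234 and 10908 CPM in the Control libraries, against 7707, 6734 and 8632 CPM and 8166 and 14689 CPM in Mac1, and 15963, 14633 and 18372 CPM and 17953 and 22682 CPM in Mac2. Mac4 thus lay below Mac2 in all 5 libraries, and above Mac1 in all but Control tissue-3.

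Lyve1, a hyaluronan receptor of perivascular macrophages, stood at 301, 194 and 418 CPM in Mac4 of the YAP5SA libraries and 175 and 348 CPM in the Control libraries, against 768, 594 and 1133 CPM and 281 and 1571 CPM in Mac1-3. It was lower in Mac4 in every library, by -1.42 ± 0.54 and by -1.24 without Control tissue-3. Against Mac1 alone the Lyve1 difference was 0.73, and against Mac2 alone -2.42. Vsig4, a complement receptor, differed by -1.39 from Mac1-3, Cd163, the haemoglobin scavenger receptor, by -0.82 and Folr2, a folate receptor, by -0.78. From Mac1 alone these 3 differed by 0.71, 0.45 and 0.33.

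Some chemokines were lower than in Mac1-3, and interferon-induced genes lower than in Mac3. Ccl6, a chemokine of myeloid cells, stood at 842, 990 and 1214 CPM in Mac4 of the YAP5SA libraries and 1549 and 348 CPM in the Control libraries, against 2484, 2723 and 2830 CPM and 2727 and 1053 CPM in Mac1-3, a difference of -1.32 ± 0.32. Wfdc17, a small secreted protein of macrophages, differed by -1.53 ± 0.49 and the chemokine Ccl8 by -1.61 ± 0.65. From Mac1 alone Ccl6 differed by -0.88, Wfdc17 by -0.27 and Ccl8 by -0.42. Wfdc17 was lower than in Mac1 in 3 of 5 libraries, and Ccl8 in 2. From Mac2 alone the 3 genes differed by -1.70, -2.26 and -2.21, and from Mac3 alone by -0.97, -1.12 and -1.89. In the chemokine list 3 of 21 counted genes were at least 2-fold lower (median -0.39) and in the interferon list 5 of 24 (median -0.37), beside 0.485% of all features. The 24 interferon genes had a median of -2.39 against Mac3 alone, 0.09 against Mac1 and 0.04 against Mac2, and all 24 were lower than in Mac3 in the 4 libraries with at least 10 Mac3 cells. The share of all features lower than in Mac3 is not given beside that count. The monocyte-derived list had a median of -0.72 over 11 genes and the list of repair and lipid handling -0.51 over 24. By the 2-fold rule 0 of the 11 and 1 of the 24 were lower, beside 0.485% of all features. Against Mac1, Mac2 and Mac3 alone the monocyte-derived medians were -0.79, 0.11 and -0.67. Those of repair and lipid handling were -0.46, -0.23 and -0.40. Ifit2, an interferon-induced RNA-binding protein, stood at 10.7, 20.1 and 16.6 CPM in Mac4 of the YAP5SA libraries and 4.87 and 0 CPM in the Control libraries, against 50.2, 63.5 and 56.8 CPM and 55.3 and 31.4 CPM in Mac1-3. In Control tissue-3 a count of 0 in Mac4 allows up to 74.5 CPM, above the Mac1-3 value. In single clusters Ifit2 stood at 409 to 765 CPM in Mac3 of 4 libraries, and Mac4 differed by 0.32 from Mac1 and by 0.00 from Mac2.

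Of the 10 widest lower differences among genes of at least 100 CPM in Mac1-3, 6 rested on a 0 in Control tissue-3: Ccl8, Fam213b, Ccr1, Samhd1, Ncf1 and Tgfbr2. Without that library Ccl8 differed by -1.39, Fam213b by -0.77, Ccr1, a chemokine receptor, by -0.74, Samhd1, a dNTP hydrolase, by -0.56, Ncf1, an NADPH oxidase subunit, by -0.55 and Tgfbr2, a TGF-beta receptor, by -0.27. Neat1, a nuclear long RNA, was at -1.21 with the library and -0.96 without it. Among 43 lower features at a minimum of 10 CPM, 13 were still 2-fold lower without it. Against 1 cluster at a time, 7 of the 43 met the same rule against Mac1, 29 against Mac2 and 17 against Mac3. No share over all features is given beside these counts.

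**Figure D2:**
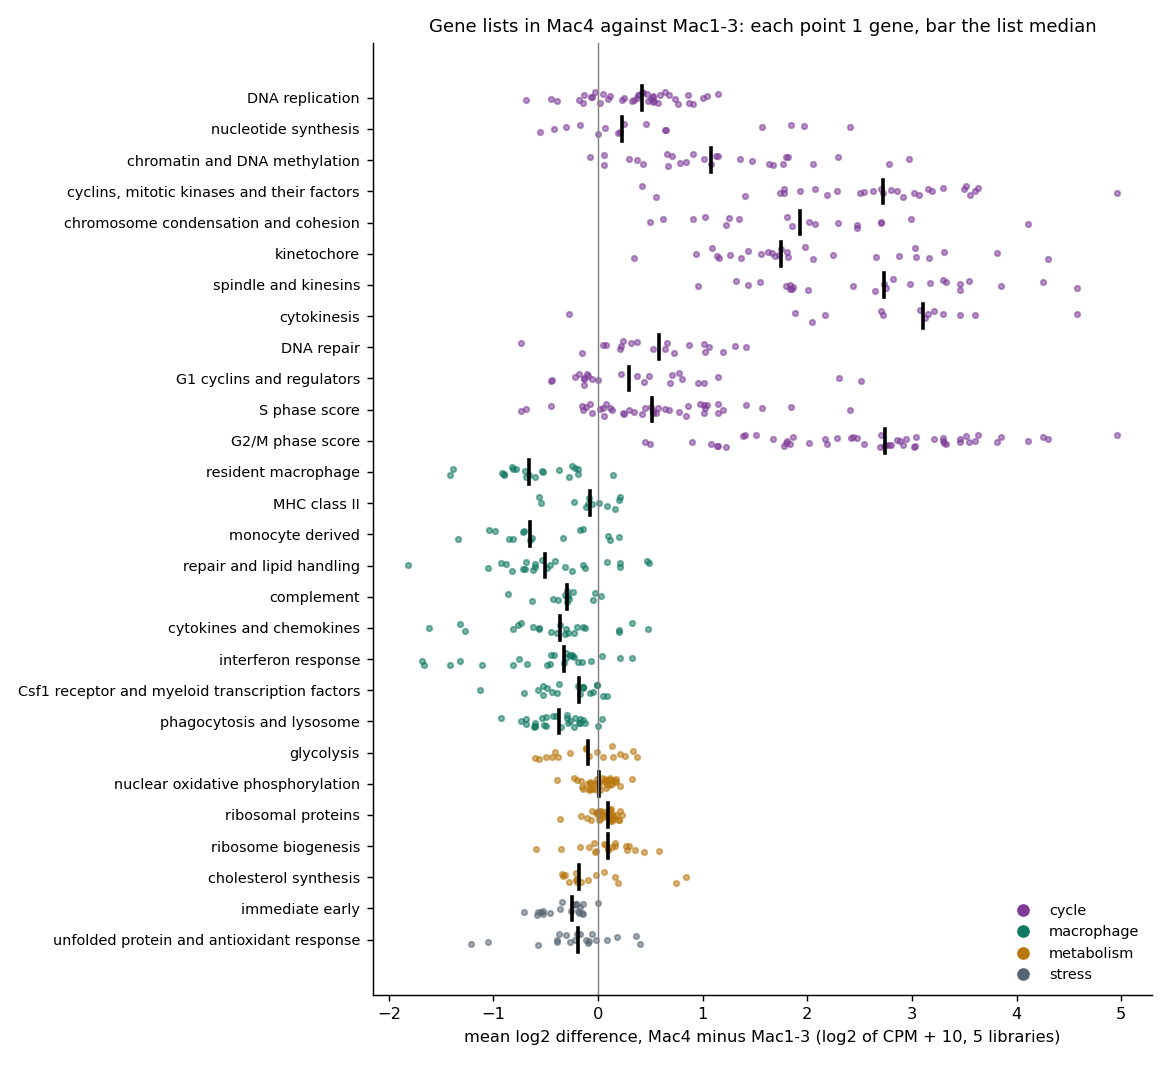
Mean log2 difference of Mac4 minus Mac1-3 over 5 libraries for the genes of 28 lists, each point 1 list member in the count table, at any level, and each bar the median of those points. The mitotic lists have medians between 1.75 and 3.10, the DNA replication list 0.42, and the macrophage lists between -0.66 and -0.07.

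Metabolic and translation genes lay close to equal in Mac4 and Mac1-3. The median difference was 0.01 over 38 genes of nuclear oxidative phosphorylation, -0.10 over 16 glycolysis genes, 0.10 over 38 ribosomal protein genes and 0.10 over 19 genes of ribosome biogenesis, and none of these passed 2-fold in either direction. Immediate early genes, which dissociation can induce, had a median of -0.30 over 18 genes.

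Markers of other cell types were present at low levels, and most of all in Control tissue-3. The 14 cardiomyocyte markers summed to 1021 to 3487 CPM in Mac4 of the YAP5SA libraries and to 5506 and 11132 CPM in the Control libraries, against 1350 to 4323 CPM and 6202 and 13518 CPM in Mac1-3. Fibroblast markers summed to 345 to 542 CPM in Mac4 of the YAP5SA libraries and to 614 and 2932 CPM in the Control libraries. T or NK cell markers summed to 19.1 to 65.0 CPM and 87.7 and 422 CPM in Mac4, against 9.70 to 13 CPM and 44.3 and 55 CPM in Mac1-3, with Cd8a at 0. With cells kept only where macrophage markers had the most UMIs, a choice made after seeing the data, 62 features were higher in Mac4 and 19 lower, against 63 and 13 over all cells.

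Outside the cell cycle lists, Mac4 profiles correlated most with Mac1 in every library except Control tissue-3, a ranking that cannot be told apart from depth. Over 8525 genes outside the cycle lists, Pearson's r of log CPM between Mac4 and Mac1 was 0.969, 0.979 and 0.969 in the YAP5SA libraries and 0.909 and 0.641 in the Control libraries. With Mac2 it was 0.953, 0.960 and 0.956, and 0.880 and 0.680, and with monocytes 0.911, 0.938 and 0.911, and 0.845 and 0.685. Mac1 ranked first in 4 libraries and monocytes in Control tissue-3, where Mac1 held 42 cells and monocytes 66. With CF4, the cycling fibroblasts, r was 0.683, 0.718 and 0.709, and 0.652 and 0.525. These are correlations across genes, which are not independent replicates, and each pair shares a library and differs in depth. With Mac3, r was 0.907, 0.948 and 0.866 in the YAP5SA libraries and 0.781 in Control tissue-2. Among Mac1, Mac2, Mac3 and monocytes, r followed the order of the summed UMIs in every library. In YAP5SA tissue-1, Mac1 had 859746 UMIs and Mac3 183359, and in Control tissue-3 monocytes had 76773 and Mac1 44795.

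Cycling fibroblasts carried much of the same programme. Against CF1 to CF3, CF4 had 239 of 9084 features at least 2-fold higher in every library (2.63%). Of these, 148 were also among the 234 of Mac4, 63.2% of the Mac4 list and 61.9% of the CF4 list, and 100 of the 148 were in the cell cycle lists. Ube2c differed by 4.96 in Mac4 and 5.36 in CF4, Mki67 by 3.51 in Mac4 and 4.62 in CF4, and Top2a by 4.11 in Mac4 and 4.64 in CF4. Of the lower features 2 were shared, of 43 in Mac4 and 123 in CF4. In Control tissue-3 the CF4 sum came from 12 cells, and neither overlap is given without that library. Plk1 differed by 3.15 in Mac4 and 2.93 in CF4, and Bub1 by 3.02 and 2.77, but neither met the every-library rule in CF4.

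The share of macrophages that were Mac4 cells was higher in every YAP5SA library than in either Control library. It was 34.9% (95% exact interval 32.7 to 37.2), 32.03% (30.4 to 33.7) and 38.5% (36.2 to 40.8) in the YAP5SA libraries, against 28.5% (24.9 to 32.2) in Control tissue-2 and 23.6% (17.1 to 31.3) in Control tissue-3; the intervals cover counting error only. The mean was 35.1% ± 3.23 in YAP5SA (SD, n = 3) and 26.1% ± 3.40 in Control (SD, n = 2), a difference of 9.09 percentage points (two-sided exact permutation test, p = 0.1). With 10 arrangements 0.1 is the smallest p this design allows, so it cannot reach 0.05. Within the libraries with joined gene names the values were 34.9% and 32.03% in YAP5SA against 28.5% in Control, and within the others 38.5% against 23.6%.

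Other denominators kept the order. Of all cells, Mac4 was 16.5%, 17.0% and 15.4% in the YAP5SA libraries, against 5.87% and 1.12% in the Control libraries. How the preparation of each library bears on those shares was not tested. Macrophages of every cluster were also more frequent in YAP5SA. Together they made up 47.3%, 53.1% and 40.0% of cells, against 20.6% in Control tissue-2 and 148 of 3116 cells in Control tissue-3. Among cells with the most UMIs on macrophage markers, the share was 34.8%, 31.9% and 38.5% in YAP5SA, against 28.1% and 17.0% in Control. In the tissue libraries alone the difference was 7.43 points (exact permutation p = 0.333, smallest possible 0.167). Control tissue-3 gave 35 Mac4 cells, and without it the difference was 6.69 points.

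**Figure D3:**
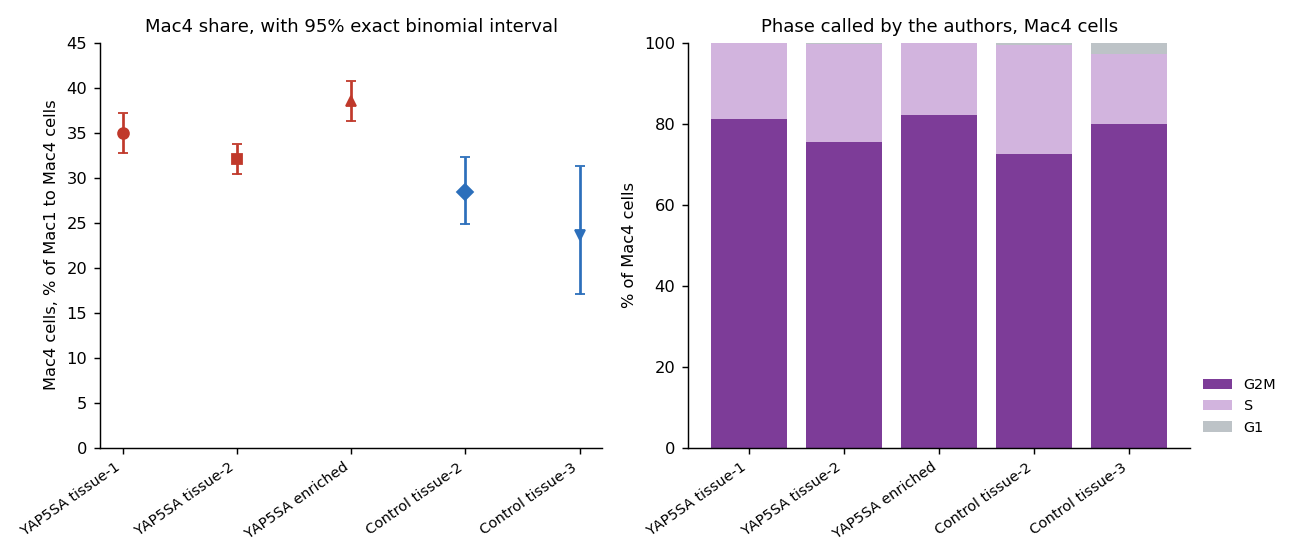
Left, percent of macrophages that were Mac4 cells in each library with the 95% exact binomial interval; right, the authors' phase calls of Mac4 cells as stacked percent of cells. The 3 YAP5SA shares lie between 32.03% and 38.5%, above 28.5% and 23.6% in Control, and G2M is the most frequent call in all 5 libraries.

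Nearly every Mac4 cell was called S or G2M. G2M calls made up 81.3%, 75.4% and 82.1% of Mac4 cells in the YAP5SA libraries, against 72.5% and 80.0% in the Control libraries, and S calls 18.6%, 24.3% and 17.9% against 26.9% and 17.1%. G1 was called in 1, 3 and 0 YAP5SA cells and in 1 cell of each Control library. The G2M ranges overlapped, with means of 79.6% ± 3.64 in YAP5SA (SD, n = 3) and 76.3% ± 5.29 in Control (SD, n = 2; exact permutation p = 0.5). Within libraries with joined names the G2M values were 81.3% and 75.4% against 72.5%, and within the others 82.1% against 80.0%. In Mac1-3, G2M calls made up 4.19% to 8.03% of cells, and S calls 24.8% to 46.0%.

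At equal depth, the cycle transcripts of Mac4 cells overlapped between the genotypes. A Mac4 cell thinned to 750 UMIs had on average 11.9, 9.80 and 12.5 UMIs on G2/M score genes in the YAP5SA libraries and 11.2 and 13.4 in the Control libraries. Mac1-3 cells had 1.83, 1.66 and 1.88 against 1.36 and 0.964, and endothelial cells 1.94, 1.30 and 1.44 against 1.37 and 1.11, so the Mac1-3 level was close to that of endothelial cells. On S phase score genes Mac4 had 2.67, 3.04 and 2.75 against 2.91 and 2.56, Mac1-3 1.77, 1.74 and 1.89 against 1.55 and 0.938, and endothelial cells 0.893, 0.893 and 0.688 against 0.835 and 0.569.

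The 2 sets together gave 14.2 ± 1.22 UMIs per Mac4 cell in YAP5SA (SD, n = 3) and 15.04 ± 1.36 in Control (SD, n = 2), a difference of -0.84 (exact permutation p = 0.6). Within libraries with joined names the sums were 14.5 and 12.8 against 14.1, and within the others 15.2 against 16. Unthinned, Mac4 had 19.4, 17.0 and 20.4 cycle UMIs per 1000 UMIs in the YAP5SA libraries, against 19.1 and 21.8 in the Control libraries. Cd68 had a UMI in 25.4%, 29.4% and 28.4% of thinned Mac4 cells in YAP5SA, against 43.9% and 23.5% in Control, and in 0.826% to 4.10% of endothelial cells.

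**Figure D4:**
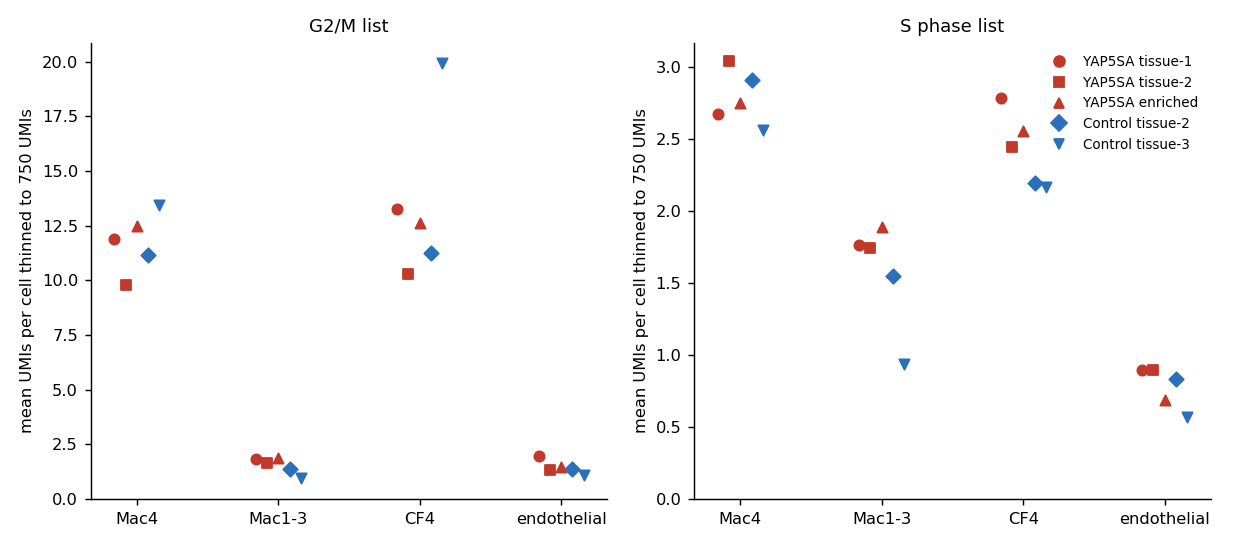
Mean UMIs per cell on G2/M score genes and on S phase score genes after thinning to 750 UMIs, by library, in Mac4, Mac1-3, CF4 and endothelial cells, YAP5SA left of Control. G2/M values of Mac4 lie between 9.80 and 13.4 UMIs and those of Mac1-3 between 0.964 and 1.88 UMIs.

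Within Mac4, 1 gene differed between the genotypes past the threshold. Of 9811 genes tested with edgeR's quasi-likelihood test, 0 were higher in YAP5SA (0%) and 1, Apoe, was lower (0.0102%) at a Benjamini-Hochberg adjusted p under 0.05. At an unadjusted p under 0.05 there were 880 genes, and DESeq2 called 17 higher and 18 lower. With preparation as a term the edgeR count was 163, and in the tissue libraries alone it was 14. Among the libraries that entered, only YAP5SA enriched was enriched, so that term fits this library alone and cannot separate preparation from genotype. Apoe, the lipid carrier apolipoprotein E, had 1080, 687 and 1218 TMM-scaled CPM in Mac4 of the YAP5SA libraries, against 7198 and 5917 in the Control libraries. The groups did not overlap, and the log2 fold change was -2.72 (SE 0.36, adjusted p = 0.0287 by edgeR). Apoe was at -2.84 without Control tissue-3 (adjusted p = 0.0167 by edgeR), and lost the threshold without YAP5SA tissue-1 (-2.83, adjusted p = 0.767) or YAP5SA tissue-2 (-2.55, adjusted p = 0.726) by the same edgeR test.

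Apoe was also low in Mac1-3 of YAP5SA hearts. There it had 1540, 1505 and 2090 TMM-scaled CPM in YAP5SA, against 10670 and 15607 in Control, a log2 fold change of -2.94 (edgeR adjusted p = 0.0689). The difference of the effects was 0.14 (edgeR adjusted p = 0.944).

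Cycle genes in Mac4 did not pass the test between genotypes. Mki67 had 998, 838 and 1146 TMM-scaled CPM in YAP5SA, against 821 and 1183 in Control, a log2 fold change of 0.01 (SE 0.34). Top2a had 1185, 875 and 1663, against 1059 and 1434, a log2 fold change of 0.00 (SE 0.36). The libraries of the genotypes overlapped for both. Over 54 G2/M score genes the median was 0.02, against 0.14 over all genes, with 1 higher and 1 lower at an unadjusted p under 0.05, beside 6.49% and 2.48% of all genes. Over 41 DNA replication genes the median was 0.23, with 2 higher and 0 lower.

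In Mac1-3 the low levels of cycle genes lay higher in YAP5SA, without passing the adjusted threshold. Of 10293 genes tested there, edgeR called 0 higher (0%) and 0 lower (0%), with 1061 at an unadjusted p under 0.05 (5.63% higher, 4.67% lower), and DESeq2 called 28 higher and 66 lower. Of 46 G2/M score genes tested, 25 lay higher in YAP5SA with no overlap between the libraries, beside 20.2% of all genes, and 2 lower, beside 14%; the median was 0.60. In Control tissue-3 the Mac1-3 sum came from 113 cells and 127312 UMIs, so its low CPM values rest on few UMIs. The sum was 451785 UMIs in Control tissue-2 and 1443569 to 4028339 UMIs in the YAP5SA libraries. Top2a had 98.7, 75.5 and 122 TMM-scaled CPM in Mac1-3 of the YAP5SA libraries, against 37.8 and 18.5 in the Control libraries, a log2 fold change of 1.59 (edgeR adjusted p = 0.255). For Top2a the effect in Mac4 minus that in Mac1-3 was -1.40 (edgeR adjusted p = 0.112).

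Among stress and translation genes no member passed the adjusted threshold, and many separated the libraries by genotype. Of 18 immediate early genes, 13 were lower in YAP5SA with no overlap, beside 11.2% of all genes, and the median was -1.34. Dusp1, a phosphatase of MAP kinases, had 360, 273 and 293 TMM-scaled CPM in YAP5SA, against 872 and 979 in Control, a log2 fold change of -1.58 (edgeR adjusted p = 0.153). Fos, a subunit of AP-1, had 887, 792 and 596, against 2068 and 2458, a log2 fold change of -1.57 (edgeR adjusted p = 0.153). Neither gene overlapped between genotypes. In Mac1-3, 13 of 19 immediate early genes were also lower in YAP5SA without overlap, beside 14% of all genes, with a median of -1.90.

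Ribosomal protein genes lay higher: 24 of 38 did not overlap, beside 25.8% of all genes, with a median of 0.68. Rpl19, a protein of the large subunit, had 613, 694 and 1027 TMM-scaled CPM in YAP5SA, against 294 and 273 in Control, a log2 fold change of 1.45 (edgeR adjusted p = 0.308). These genes share reads with near-identical copies, which makes their counts uncertain, and Rps27 and Rps6 were high in YAP5SA enriched and Control tissue-3, the libraries without joined names, and low in the other 3. Of 19 ribosome biogenesis genes 14 did not overlap, with a median of 0.63. Ncl, nucleolin, had 1716, 2337 and 1916, against 907 and 842, a log2 fold change of 1.18 (edgeR adjusted p = 0.342). Both lists also lay higher in Mac1-3 of YAP5SA. There 16 of 38 ribosomal protein genes and 11 of 19 ribosome biogenesis genes did not overlap, beside 20.2% of all genes. The medians were 0.45 and 0.58.

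Macrophage genes were mixed. Of 20 resident macrophage genes 8 lay lower in YAP5SA with no overlap, beside 11.2% of all genes, and 2 higher, beside 25.8%, with a median of -0.47. Igf1, insulin-like growth factor 1, had 51.4, 54.8 and 67.0 TMM-scaled CPM in YAP5SA, against 253 and 91.0 in Control, a log2 fold change of -1.81 (edgeR adjusted p = 0.153). S100a6, a calcium-binding protein of the monocyte-derived list, had 927, 1092 and 904, against 345 and 205, a log2 fold change of 1.76 (edgeR adjusted p = 0.153). Cd68 had 457, 486 and 516, against 907 and 387, and overlapped. The 14 cardiomyocyte markers had a median of -1.65 in the same test. Of these, 7 were lower and 0 higher without overlap, beside 11.2% and 25.8% of all genes. The part of that RNA in the values above was not tested. In Mac1-3, 8 of 21 resident macrophage genes lay lower and 0 higher without overlap, beside 14% and 20.2% of all genes. Their median was -0.57.

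**Figure D5:**
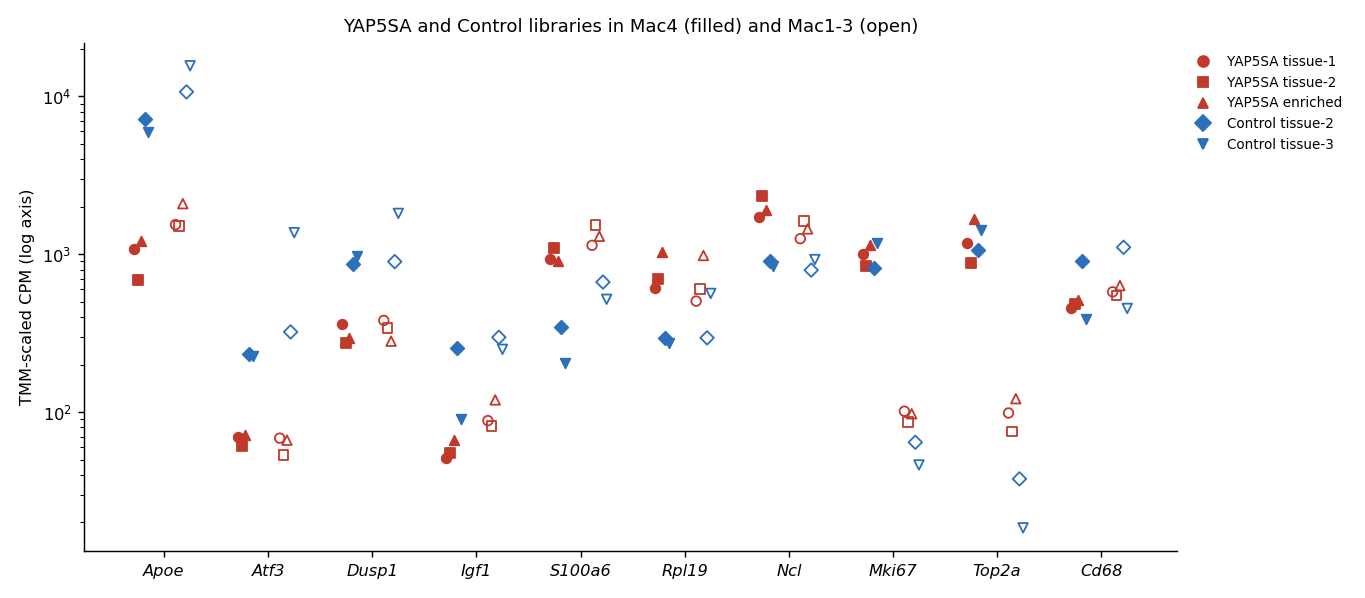
TMM-scaled CPM on a log axis for 10 genes in Mac4 (filled) and Mac1-3 (open), each point 1 library. In each, the 3 YAP5SA libraries lie left of the 2 Control libraries. In Mac4, Apoe, Atf3, Dusp1 and Igf1 lie lower in every YAP5SA library, S100a6, Rpl19 and Ncl higher, and Mki67, Top2a and Cd68 overlap.

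The genotype effect differed between Mac4 and Mac1-3 for 2 of 10682 genes (0.0187%, both with a higher effect in Mac4) and for 0 in the other direction (0%), by edgeR's quasi-likelihood test with the library as a block; 618 genes had an unadjusted p under 0.05 (4.15% higher, 1.64% lower), and DESeq2 called 0. Atf3, a stress-induced transcription factor, had 69.7, 60.8 and 71.6 TMM-scaled CPM in Mac4 of the YAP5SA libraries, against 233 and 228 in the Control libraries, and 68.4, 53.7 and 66.5 in Mac1-3 of the YAP5SA libraries, against 322 and 1369 in the Control libraries. It was low in every YAP5SA library in both, and the 1369 of Control tissue-3 stood alone. The difference of log2 fold changes was 1.33 (SE 0.27, edgeR adjusted p = 0.00264), and 0.62 (edgeR adjusted p = 0.713) without Control tissue-3.

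Dcn, decorin, a matrix proteoglycan of fibroblasts, had 88.7, 79.0 and 82.6 TMM-scaled CPM in Mac4 of the YAP5SA libraries, against 50.7 and 1183 in the Control libraries, and 101, 80.8 and 53.0 in Mac1-3, against 46.6 and 3488. Both high values were those of Control tissue-3, the library with the highest fibroblast marker sums. The difference was 1.53 (SE 0.23, edgeR adjusted p = 6.61e-07), and -0.02 (edgeR adjusted p = 1) without Control tissue-3.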

How the data were processed

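Drop-seq was run on 6 libraries of heart cells. The submitters' processing notes name Picard, STAR and Seurat 2.3.4; settings, genome build and annotation are not given in the sources used here. The deposited counts are whole UMIs of 22281 features per cell. The deposited cell table gives library, cluster, phase call and the mitochondrial fraction computed by the authors; it numbers the YAP5SA tissue libraries 1 and 2. The scaled table was not used.

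The 864 joined gene names were merged with their members into 705 families (21280 features). Counts were summed per library over Mac4 and over Mac1-3. Genotypes were compared with edgeR 4.0.16 in R 4.3.3 (TMM, filterByExpr, quasi-likelihood test, Benjamini-Hochberg adjusted p of 0.05) and DESeq2 1.42.0 as an alternative; positive fold changes mean higher in YAP5SA. Differences of the effect used a library block. Mac4 against Mac1-3 used log2(CPM + 10) with no test. Shares, phases and cells thinned to 750 UMIs were compared by exact permutation (scipy 1.17.1), with Clopper-Pearson intervals at 95%. Depth ran from 40246 to 2580672 UMIs per Mac4 sum and limits the Control values; a count of 0 was taken to allow 3 counts. The procedures were tested on simulated data.

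Counts of features used at least 10 or 100 CPM as the mean of Mac4 and Mac1-3. Named genes were the 15 highest features of at least 100 CPM in Mac4, the 10 lowest of at least 100 CPM in Mac1-3, the leading members of each list, and genes past the adjusted threshold. The members and lists were chosen with earlier results of these data known. Alternatives were other scalings, filters, covariates, cell subsets and left-out libraries; cells with fewer other markers, cells led by macrophage markers, a 10 CPM minimum, a pseudocount of 50 CPM and the lists against single clusters were chosen after seeing the data.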

Additional observations from a re-analysis of the deposited data

Results flagged for a closer look

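The genotype effect on Dcn differed between Mac4 and Mac1-3 by 1.53 on the log2 scale, and that on Atf3 by 1.33, both by edgeR's test of the difference itself. Both rested on Control tissue-3, as the report gives beside each.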

How the results depend on the processing

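Genes called between genotypes in Mac4 numbered 1, and 166 with no filter, 35 with DESeq2, 163 with preparation as a term, 14 in tissue libraries alone, 0 with equal cell numbers, 8 in cells with fewer other markers, 21 in cells led by macrophage markers, 424 in libraries with joined names and 0 to 168 with 1 library left out. In Mac1-3 the count was 0, and 391 with no filter, 94 with DESeq2, 1 with equal cells, 3 with fewer other markers, 1 in cells led by macrophage markers, 10 with joined names and 0 to 445 with 1 library left out. For the difference it was 2, and 0 with DESeq2, 1 with equal cells, 0 in either marker subset, 5 with joined names and 1 to 47 with 1 library left out. The causes were not tested, and the preparation term fits only YAP5SA enriched, the single enriched library that entered. Against Mac1-3, higher features numbered 63, and 154 against Mac3 alone, 120 at 50 CPM, 234 at 10 CPM and 55 to 66 with 1 library left out. Lower ones numbered 13, and 6 against Mac1, 35 against Mac2, 53 against Mac3, 24 with fewer other markers, 4 with a pseudocount of 50 CPM, 20 at 50 CPM, 43 at 10 CPM and 5 to 18 with 1 library left out.

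The share difference was 6.69 to 11.5 points, the G2M difference -0.42 to 7.06 points and the thinned difference -1.80 to 0.12 UMIs with 1 library left out. Of 1071 alternative values for 62 gene results, 936 kept direction and side of the threshold, 17 lost the threshold, 83 gained it and 35 reversed. Mki67 in Mac4 was at -0.040 with RLE, -0.12 with library totals, -0.02 with DESeq2, -0.11 with preparation, -0.17 in tissue, -0.81 with equal cells and -0.0093 in S- and G2M-called cells. Top2a was at -0.043, -0.12, -0.039, -0.26, -0.32 and -0.40 under the first 6 of these and -0.033 with joined names. Dcn in Mac4 was at 0.73 with joined names, and its difference at -0.17. The Apoe difference was -0.16 with library totals, -0.044 in cells led by macrophage markers and -0.23 with joined names. With 1 library left out, Mac4 values ran from -0.19 to 0.29 for Mki67, -0.32 to 0.25 for Top2a, -0.88 to 0.39 for Cd68, -3.77 to 0.73 for Dcn, -0.084 to 2.45 for Cks2, -1.04 to 0.49 for Ctsh and -1.53 to 0.92 for Hmox1, and differences from -0.023 to 1.59 for Dcn and -0.21 to 0.53 for Apoe. With equal cells, where 1311 genes were tested, Apoe in Mac4 was at -2.60 with an edgeR adjusted p of 0.251. The median of all genes in the difference was 0.12, and -0.037 with library totals. With the replicate number of the titles as a replicate block, 55 genes were called in Mac4, 84 in Mac1-3 and 0 in the difference, with Mki67 at -0.11 and Top2a at -0.28 in Mac4. The tissue libraries make 2 pairs, 1 of which rests on a library that the cell table numbers otherwise, and the deviations of same-numbered libraries correlated across genes at 0.12 in Mac4 and 0.18 in Mac1-3. The samples share only a number. Cells without any cardiomyocyte or fibroblast marker UMI were too few for a fit, which was not run.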
